A study of Mus musculus with 4 samples.

Results

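Mouse embryonic fibroblasts (MEFs) whose own Rb had been deleted and replaced by retroviral wild-type (WT) Rb-HA were compared with parental MEFs that kept endogenous Rb, on 1 array each. The comparison addressed which transcripts WT Rb-HA left at a level other than that seen with endogenous Rb. Genes were included if at least 1 of their probes was detected on either array, that is, had a detection p-value below 0.01 against the array's negative controls, and the probe with the brightest mean signal stood for its gene. This left 11902 genes of the 30872 symbols on the array, while 12616 genes were detected on at least 1 of the 4 arrays of the series. Of the 11902 genes, 11018 were detected on both arrays, 458 on the parental array alone and 426 on the WT Rb-HA array alone. At the last step of the detection p-value inside the limit, 0.00962, lay 5 genes with intensities of 57.1 to 58.4, and at the first step outside, 0.0107, lay 35 symbols with intensities of 58.1 to 58.4.

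All cultures were embryonic fibroblasts of strain FVB;129 with floxed Rb, grown in serum. Parental MEFs received a solution without TAT-Cre and then medium alone, each as 2 treatments of 1 h that were 3 h apart. WT Rb-HA MEFs received TAT-Cre, a cell-permeable recombinase, and a retrovirus carrying wild-type RB on the same schedule, so that exogenous RB was expressed when the endogenous gene was deleted. Rb-deleted MEFs received TAT-Cre and medium alone, and ΔCdk Rb-HA MEFs received TAT-Cre and a retrovirus with Rb that lacks its Cdk phosphorylation sites. Per the study's methods all 4 cultures had been released from contact inhibition and treated with doxorubicin, a DNA-damaging drug that the labels do not mention. WT Rb-HA MEFs therefore differed from parental MEFs by TAT-Cre, by loss of endogenous Rb, by retroviral infection and by exogenous Rb, and the parts of these in any difference cannot be told apart with 1 array a side. Values from the Rb-deleted array are given as those without Rb. This is a short name only, since both probes of the gene, Rb1, were still detected on that array. Nothing on the arrays states how much exogenous Rb protein was present, although the study describes ectopic Rb at physiologic levels by immunoblot.

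Rb is a pocket protein that binds E2F transcription factors and holds down the genes they drive. Among these genes are those that license and fire replication origins, copy DNA, make deoxynucleotides and package the new DNA into chromatin. Cyclin-dependent kinases phosphorylate Rb late in G1 phase, which releases E2F and lets cells enter S phase. Genes of mitosis are controlled largely by other complexes that bind later in the cycle, although E2F also feeds into some of them.

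The 4 arrays carried the same BeadChip number, had mean intensities of 336 to 346 over all probes and detected 35.2 to 37.0% of probes, with a median of 44 beads per probe on each. Differences are given below as log2 ratios of WT Rb-HA over parental after background correction and normalization, while intensities are those the authors deposited, on a linear scale. The error given with a ratio is the standard error over beads within the arrays, whose median was 0.09. It leaves out the variation between cultures, so the differences lack a check by replicates and were not tested. Defining markers of fibroblasts were detected for 11 of 11 genes, among them Col1a1, Fn1, Vim, Thy1 and Pdgfra, and none of them passed 1.6-fold. None of 4 endothelial markers (Pecam1, Cdh5, Kdr and Tek) and none of 4 mast cell markers (Kit, Cpa3, Tpsb2 and Fcer1a) was detected on either array. Of 7 macrophage markers, 5 were detected and all 5 were lower on the WT Rb-HA array.

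The deleted gene was read first. Rb1, on chromosome 14, had probes at positions 4421 and 4002 of its transcript. The probe at position 4421 read 543 in parental MEFs, 180.9 with WT Rb-HA, 160.5 without Rb and 170.1 with ΔCdk Rb-HA, a log2 ratio of WT Rb-HA to parental of -1.69 (bead standard error 0.06). The probe at position 4002 read 108.0 in parental MEFs and 51.1 with WT Rb-HA, where it was not above background. At both positions the WT Rb-HA array read closer to the Rb-deleted than to the parental array. Whether the retroviral insert or the deleted part of the gene holds these positions is not given in the sources used here, and whether the probes read exogenous RB was not tested. The low readings with WT Rb-HA are therefore no measure of how much exogenous RB was expressed.

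The largest differences of the comparison were those of 4 probes that have a number for a name and no gene in the table. The brightest of them on the WT Rb-HA array read 6540 there, 122.8 in parental MEFs, 105.3 without Rb and 9491 with ΔCdk Rb-HA. The others read 5459, 4720 and 976 with WT Rb-HA, of which the first read 82.5 in parental MEFs and the other two were not above background there. The log2 ratios of the 2 that were detected on the parental array were 6.05 and 6.55. Without background correction the ratios of the other two were 6.45 and 4.57, against a parental signal that had only an upper bound. All 4 were bright on both arrays from retrovirally infected cells and dim on both arrays from uninfected cells. The other 51 numbered probes lay between 33.5 and 58.3 on the WT Rb-HA array.

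WT Rb-HA left 112 genes more than 1.6-fold (0.68 on the log2 scale) above parental, 0.941% of those analysed, and 313 genes more than 1.6-fold below it, 2.63%. The other 11477 genes, or 96.4%, lay within 1.6-fold, and the median log2 ratio of all genes was 0.01. Without the 4 numbered probes, the 108 increased genes had a median log2 ratio of 0.77 and 14 of them passed 2-fold. Decreases were larger, with a median of -0.98, 150 genes past 2-fold and 25 past 4-fold. Of the 112 increased genes 23 were not above background in parental MEFs, and of the 313 decreased ones 86 were not above background with WT Rb-HA. Each of these differences was larger than 2 bead standard errors. A limit of 0.68 beside a median error of 0.09 made this likely in advance, so it adds little. Both counts depended on the background correction, and a correction with an offset of 50 left 44 increased and 174 decreased genes.

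**Figure D1:**
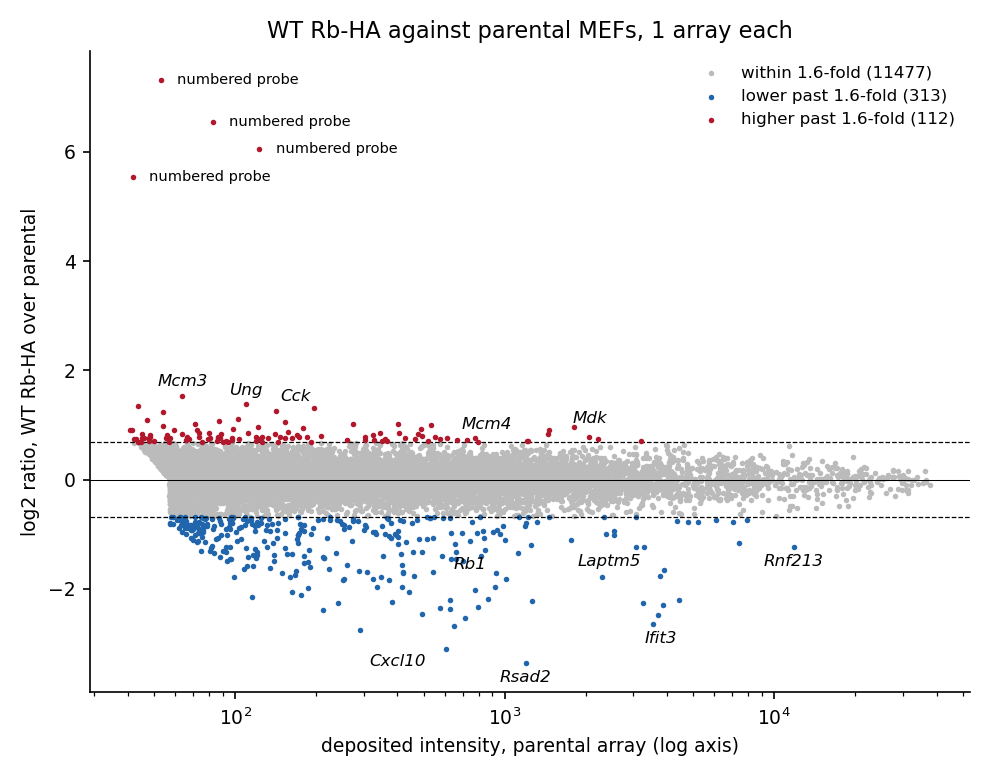
Log2 ratio of WT Rb-HA over parental MEFs for each of 11902 genes against the deposited intensity of its probe on the parental array (log axis), 1 point per gene, with dashed lines at 1.6-fold. The 4 numbered probes sit above all other genes, 2 of them against a parental signal that was not above background, the 108 other increased genes reach 1.54 (Mcm3), and the 313 decreased genes reach -3.36 (Rsad2).

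Most origin licensing and firing genes lay above parental in WT Rb-HA MEFs. Of 26 listed genes 22 were detected, 6 passed 1.6-fold upward and none downward, and 16 were above 0, with a median log2 ratio of 0.39 beside 0.01 for all genes. The share past 1.6-fold upward was 27.3%, beside 0.941% of all genes. The 6 were Mcm2, Mcm3, Mcm4, Mcm5 and Mcm6, subunits of the MCM helicase that is loaded onto origins, and Gins2, a subunit of the GINS complex that joins it. The medians of the same 22 genes were 0.89 without Rb and 0.72 with ΔCdk Rb-HA, ratios that share the parental array with that of WT Rb-HA. Here and below, the RNA is that of a whole culture. More or fewer cells of a type or in a phase of the cycle, and more or less RNA per cell, cannot be told apart.

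Mcm3, on chromosome 1, read 63.8 in parental MEFs, 140.1 with WT Rb-HA, 223 without Rb and 159 with ΔCdk Rb-HA. With WT Rb-HA this was a log2 ratio of 1.54 (0.12), the largest of any gene with a symbol, which became 1.02 with an offset of 50. A probe named LOC100045677, which the table describes as similar to Mcm3, had a ratio of 1.07 (0.11), with intensities of 87.3 on the parental and 156 on the WT Rb-HA array. Both readings put Mcm3-like transcript between the parental and the Rb-deleted level. Mcm6 had intensities of 273 on the parental array, 507 on the WT Rb-HA array, 1164 without Rb and 624 with ΔCdk Rb-HA, a log2 ratio of 1.02 (0.11) for WT Rb-HA. Its other 3 detected probes gave log2 ratios of 1.19, 0.89 and 0.79. Mcm2 had intensities of 178, 314, 631 and 374 in parental, WT Rb-HA, Rb-deleted and ΔCdk Rb-HA MEFs, a log2 ratio of 0.95 (0.10) for WT Rb-HA. For these 3 genes the WT Rb-HA array held the second lowest intensity of the 4 arrays, above parental alone.

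Mcm5, with intensities of 367 on the parental and 565 on the WT Rb-HA array, had a log2 ratio of 0.71 (0.06). Mcm4, the brightest of the list on the parental array at 1218, read 1878 with WT Rb-HA and 3342 on the Rb-deleted array, a log2 ratio of 0.70 (0.03) for WT Rb-HA. The remaining subunit of the helicase ring did not follow to the same extent. Mcm7 had intensities of 209 on the parental array and 232 on the WT Rb-HA array and a log2 ratio of 0.21 (0.13), within 2 bead standard errors of 0, while the Rb-deleted array read 397. The MCM loaders Cdt1 and Cdc6 had log2 ratios of 0.65 (0.08) and 0.56 (0.12), below 1.6-fold. At the other end of the list were Recql4, at -0.43 (0.18) and not above background with WT Rb-HA, and Gins3, at -0.41 (0.18). Dbf4, which activates the kinase Cdc7 at origins, was at -0.18 (0.09) and Cdc7 itself at 0.24 (0.12).

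**Figure D2:**
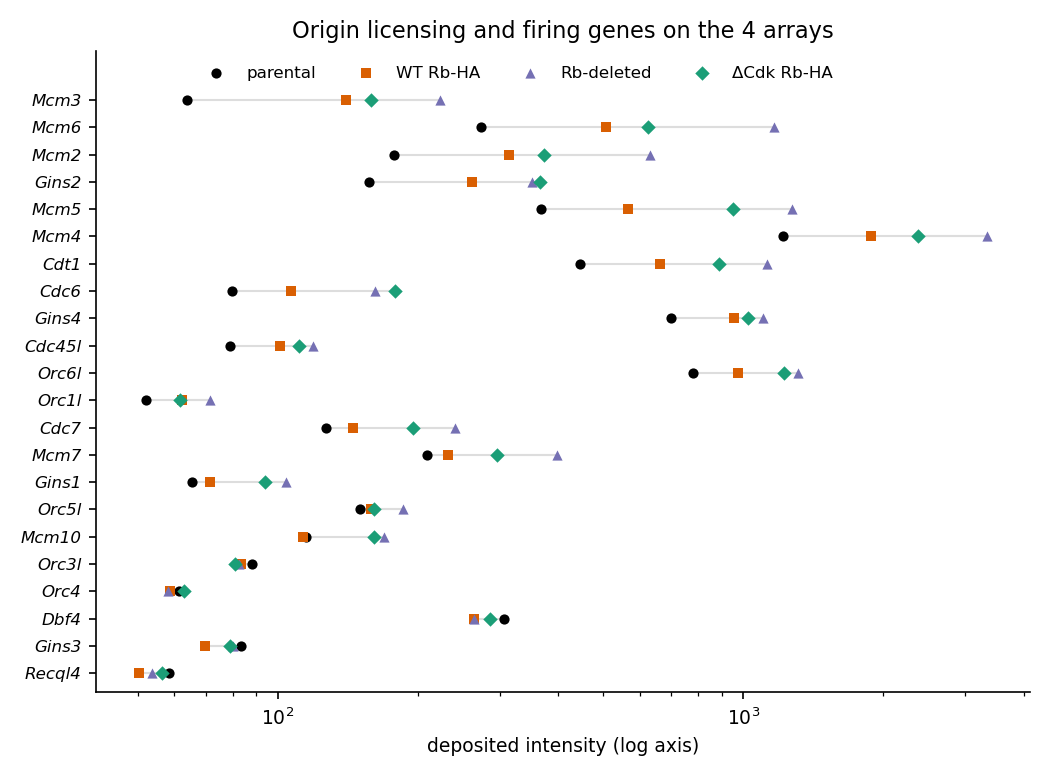
Deposited intensity (log axis) of the 22 detected origin licensing and firing genes on the parental, WT Rb-HA, Rb-deleted and ΔCdk Rb-HA arrays, 1 array each, ordered by the ratio of WT Rb-HA to parental. For Mcm3, Mcm6, Mcm2, Mcm5 and Mcm4 the WT Rb-HA array lies above the parental array and below the other 2.

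Promoters of some increased genes held an E2F-type word, shown here because replication genes are ones that E2F is known to drive. RefSeq promoters of build GRCm38.p6, 250 bases before to 50 after the start site, were matched to 7188 of the 11902 genes by Entrez number. They were searched on both strands for TTTGGCGC, TTTCCCGC, TTTGCCGC and TTTCGCGC. Of the genes with a promoter, 4.73% held a word (340 genes). Among increased genes the share was 19.3% (11 of 57), among decreased genes 2.33% (5 of 215), and among origin licensing and firing genes 56.3% (9 of 16). The stretches with the words of Mcm3 (chr1:20820266-20820294, minus strand, 18 to 46 bases after the start site), Mcm6 (chr1:128359735-128359825, minus strand, upstream), Mcm5 (chr8:75109346-75109377, plus strand, upstream) and the histone gene Hist1h2ah (chr13:22035629-22035658, minus strand, across the start site) are printed 5′ to 3′ on the strand of the gene, with the words in capitals.
Mcm3: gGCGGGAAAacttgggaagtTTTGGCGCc
Mcm6: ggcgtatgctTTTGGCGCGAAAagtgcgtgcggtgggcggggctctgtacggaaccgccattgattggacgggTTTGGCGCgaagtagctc
Mcm5: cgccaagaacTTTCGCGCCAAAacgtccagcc
Hist1h2ah: cgggcctccttTTTCGCGCcctggcttgac
In Mcm6 and in Mcm5 a word on one strand overlaps a word on the other, TTTGGCGC with GCGCGAAA and TTTCGCGC with GCGCCAAA, which lengthens the run of capitals. Most genes with a word were not increased, since 11 of the 340 were. In the origin licensing and firing list Mcm7, at 0.21, and Gins3, at -0.41, also held one.

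Genes of the replication fork also lay mostly above parental, with fewer of them past 1.6-fold. Of 30 listed genes 26 were detected, 2 passed 1.6-fold upward and 25 were above 0, with a median of 0.40. The share increased was 7.69%, beside 0.941% of all genes. Wdhd1, which links the helicase to the polymerases, had intensities of 59.3 on the parental and 91.3 on the WT Rb-HA array, a log2 ratio of 0.90 (0.12). Rpa2, a subunit of the complex that coats single-stranded DNA, read 79.2 and 115.7, a ratio of 0.74 (0.15), but its other detected probe gave 0.05. The brightest member on the parental array, Rpa1, was at 0.47 (0.06), from 1098 to 1431, while the Rb-deleted array read 2496. Pcna, the sliding clamp, was the lowest at 0.00 (0.11), with intensities of 304 and 294. Neither of the 2 increases passed 1.6-fold under every alternative setting.

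For deoxynucleotide synthesis, 10 of 12 listed genes were detected, 2 were increased and 1 was decreased, with a median of 0.16. The shares were 20% upward, beside 0.941% of all genes, and 10% downward, beside 2.63%. Thymidylate synthase (Tyms) had intensities of 495 in parental MEFs, 813 with WT Rb-HA, 964 without Rb and 997 with ΔCdk Rb-HA, a log2 ratio of 0.79 (0.06) for WT Rb-HA. Thymidylate kinase (Dtymk), the next enzyme, read 427 and 679 on the parental and WT Rb-HA arrays, a ratio of 0.76 (0.08), but its other 2 detected probes gave 0.15 and 0.20. Ribonucleotide reductase was near parental, with Rrm1 at 0.07 (0.09) and Rrm2 at 0.33 (0.07). Samhd1, which breaks deoxynucleotides down and is also an interferon-inducible gene, was the decreased one, with 403 on the parental and 201.6 on the WT Rb-HA array and a ratio of -1.04 (0.07), while its other 2 detected probes gave -0.49 and -1.20.

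Uracil-DNA glycosylase (Ung), which removes uracil from DNA, was the second largest increase among genes with a symbol. It read 109.6 in parental MEFs, 243 with WT Rb-HA, 490.1 without Rb and 253 with ΔCdk Rb-HA, a log2 ratio of 1.37 (0.12) for WT Rb-HA, and its other probe gave 0.96. It was the only one of 14 detected DNA repair genes, of 28 listed, to pass 1.6-fold. This was a share of 7.14%, beside 0.941% of all genes. The median of that list was 0.19, and Blm was next at 0.62 (0.12). Rad18, at -0.21 (0.13), was the lowest and Msh6, at 0.22 (0.05), the brightest on the parental array.

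Chromatin assembly and DNA methylation genes had 2 increases among 13 detected of 14 listed, and a median of 0.38, with 1 increase left without background correction and 0 with an offset of 50. The share increased was 15.4%, beside 0.941% of all genes. Chaf1b, a subunit of the histone chaperone CAF-1, had intensities of 146 in parental MEFs, 229 with WT Rb-HA, 509 without Rb and 353 with ΔCdk Rb-HA, a log2 ratio of 0.78 (0.11) for WT Rb-HA. Ezh2, the methyltransferase of Polycomb complex PRC2, read 121.6 and 186 on the parental and WT Rb-HA arrays, a ratio of 0.74 (0.12). The other core subunits of PRC2 did not pass 1.6-fold, with Suz12 at 0.12 (0.05) and Eed, the lowest of the list, at -0.27 (0.08). Hat1, the brightest, was at 0.44 (0.05).

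Among 24 detected G1 cyclins, E2F and pocket protein genes of 29 listed, cyclin E1 (Ccne1) passed 1.6-fold upward and Rb1 downward, and the median was 0.14. Each share was 4.17%, beside 0.941% of all genes upward and 2.63% downward, and Rb1 is the deleted gene. Ccne1 read 85.3 on the parental and 124.1 on the WT Rb-HA array, a log2 ratio of 0.71 (0.15) that became 0.54, within 1.6-fold, without background correction. The Cdk inhibitor Cdkn1c, which is imprinted, read 4613 in parental MEFs and had log2 ratios of 0.63 (0.04) with WT Rb-HA, below 1.6-fold, 0.95 without Rb and -0.85 with ΔCdk Rb-HA. Cdkn1a, the gene of p21 and the brightest of the list, was at -0.09 (0.05).

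Mitotic genes did not follow the replication genes in the ratio of WT Rb-HA to parental. None of 27 detected G2/M and mitosis genes of 46 listed passed 1.6-fold either way and 12 were above 0, with a median of -0.05 that became 0.03 under the alternative furthest from it. The medians of the same genes were 0.19 without Rb and 0.24 with ΔCdk Rb-HA, over the same parental array. Of the 27 genes 24 had a lower value with WT Rb-HA than without Rb. Birc5 was highest, at 0.37 (0.07), and the proliferation marker Mki67 was lowest, at -0.63 (0.12), with intensities of 102 in parental MEFs, 74.9 with WT Rb-HA, 101.1 without Rb and 83.8 with ΔCdk Rb-HA. Cenpa, the brightest on the parental array, was at 0.35 (0.05). Of 18 promoters of this list 1 held one of the E2F words, that of Cdc2a. This share of 5.56% was near the 4.73% of all genes with a promoter.

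Most histone genes were above parental on the WT Rb-HA array, in some families past 1.6-fold. Of 14 detected H2A genes 5 passed 1.6-fold upward, with a median of 0.60, and of 8 detected H4 genes 3 did, with a median of 0.64. The shares were 35.7% and 37.5%, beside 0.941% of all genes. None of 10 detected H2B genes passed 1.6-fold, although 9 were above 0 and the median was 0.37. None of 8 detected H1 and H3 genes did either, with a median of 0.19. Histone genes of one family are close to identical in sequence, so probes of different members may share signal, which was not tested.

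Hist1h2ak was the highest H2A gene, with intensities of 532 on the parental array, 997 on the WT Rb-HA array, 1155 without Rb and 1046 with ΔCdk Rb-HA, and a log2 ratio of 1.00 (0.07) for WT Rb-HA. The brightest H2A gene on the parental array, Hist1h2af, read 3951 there and 5951 with WT Rb-HA, a ratio of 0.64 (0.05), and Hist1h2ab was lowest at -0.11 (0.15), not above background with WT Rb-HA. For all 5 H2A genes past 1.6-fold the highest intensity of the 4 arrays was that without Rb. The H4 gene Hist1h4a had a different order, with 664 in parental MEFs, 1033 with WT Rb-HA, 467 without Rb and 1580 with ΔCdk Rb-HA, and a log2 ratio of 0.72 (0.05) for WT Rb-HA. Hist1h4f, at 0.81 (0.08), and Hist1h4i, at 0.80 (0.07), were the other increased H4 genes, and their Rb-deleted arrays also read below parental, at 254 against 324 and at 196 against 208. Within H2B, Hist2h2be was highest at 0.56 (0.11) and Hist1h2bc, the brightest, lowest at -0.05 (0.06). All 10 H2B, all 8 H4 and all 8 H1 and H3 genes had a higher value with WT Rb-HA than without Rb, compared with 5 of the 14 H2A genes.

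**Figure D3:**
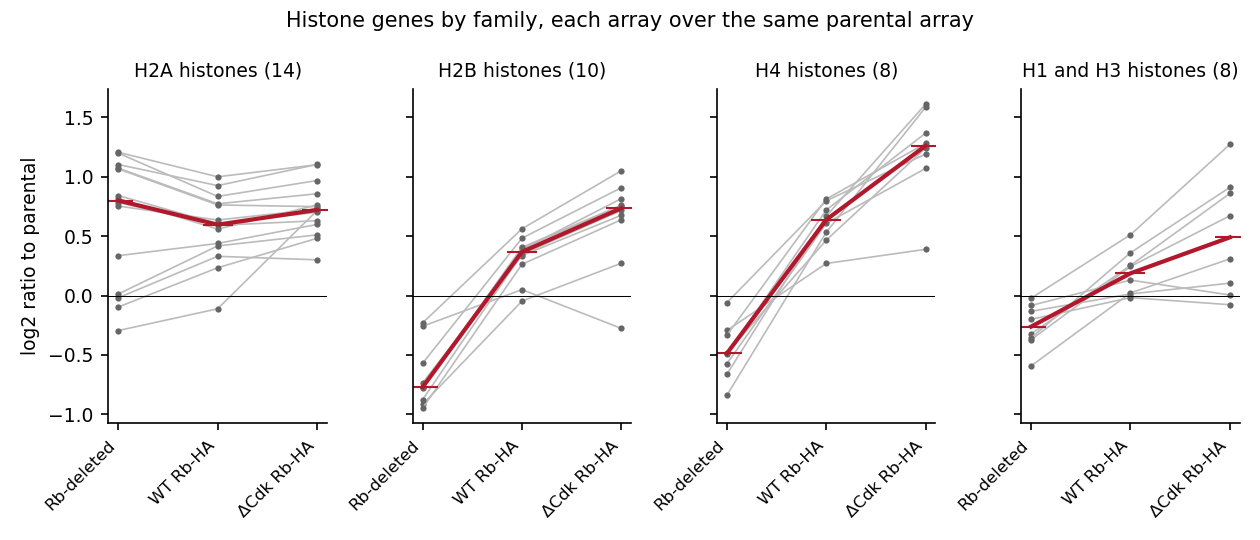
Log2 ratio to the same parental array of each detected histone gene (grey points joined by lines) on the arrays of WT Rb-HA, ΔCdk Rb-HA and Rb-deleted MEFs, by family, with the family median in red. With WT Rb-HA the medians were 0.60 for H2A, 0.37 for H2B, 0.64 for H4 and 0.19 for H1 and H3 genes, while on the Rb-deleted array those of H2B, H4 and H1 and H3 genes were below 0.

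The largest increases also held genes outside the replication and histone lists. Dnali1, an axonemal dynein light chain, was not above background on the parental array at 43.5 or on the Rb-deleted array at 43.4, and read 80.3 with WT Rb-HA and 107.8 with ΔCdk Rb-HA, at least 1.67-fold higher with WT Rb-HA than in parental MEFs. Reg1, a secreted lectin-like protein, read 440.2 with WT Rb-HA against 196 on the parental array, 333 without Rb and 229.9 with ΔCdk Rb-HA, a log2 ratio of 1.31 (0.07). The peptide hormone gene Cck read 141 in parental MEFs, 298 with WT Rb-HA, 288 without Rb and 565 with ΔCdk Rb-HA, a ratio of 1.25 (0.09) for WT Rb-HA. Reg1 was thus highest with WT Rb-HA, and the other two with ΔCdk Rb-HA.

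Nptx1, a secreted neuronal pentraxin, read 96.1 with WT Rb-HA against 54.2 on the parental array, where it was not above background, a log2 ratio of 0.81 without background correction. Raet1c, a stress ligand of the NKG2D receptor, had a log2 ratio of 1.05 (0.08), but its other 2 detected probes gave 0.28 and 0.54. Spon2, a matrix protein, was at 1.02 (0.08) and Saa3, an acute-phase protein, at 0.96 (0.12). The rest of the 15 largest increases were F830002E14Rik at 1.11 (0.12), LOC637353, described in the table as similar to Anp32b, at 1.02 (0.11), and LOC329750 at 0.97 (0.06), besides the replication and histone genes given above.

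Further increased genes of known function were chosen after their values had been seen. Mdk, the growth factor midkine, had intensities of 1458 on the parental array, 2630 on the WT Rb-HA array, 3347 without Rb and 1521 with ΔCdk Rb-HA, a log2 ratio of 0.91 (0.05) for WT Rb-HA, and its other 2 probes gave 1.28 and 0.86. Nppb, a natriuretic peptide gene, read 476 on the parental and 804 on the WT Rb-HA array but 544 and 591 on the Rb-deleted and ΔCdk Rb-HA arrays, a ratio of 0.84 (0.05). Umps, which makes UMP for pyrimidine nucleotides, was at 0.86 (0.08), but its other 2 detected probes gave 0.14 and 0.37. The IGF-binding protein Igfbp6 was at 0.70 (0.08), which became 0.66, within 1.6-fold, without background correction. Mdk was thus near parental with ΔCdk Rb-HA, whereas Nppb was highest with WT Rb-HA.

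Interferon effector genes, the products of which restrict viruses, held more decreases than any other list. Of 54 listed genes 42 were detected and 36 passed 1.6-fold downward, none upward, and all 42 were below 0, with a median log2 ratio of -1.53 beside 0.01 for all genes. The share past 1.6-fold downward was 85.7%, beside 2.63% of all genes. The summed intensity of the 42 genes was 80151 in parental MEFs and 41399 with WT Rb-HA, and it was 43519 without Rb and 31412 with ΔCdk Rb-HA. Type I interferons act through the receptor, the kinases Jak1 and Tyk2, and a complex with Stat2 and Irf9 that binds the interferon-stimulated response element in promoters.

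Rsad2 (viperin), an antiviral enzyme, was the largest decrease of the comparison, with intensities of 1197 on the parental array, 134 on the WT Rb-HA array, 250.4 without Rb and 100.4 with ΔCdk Rb-HA, and a log2 ratio of -3.36 (0.08) for WT Rb-HA. Ifit3, another gene of the list, read 3548, 569, 537 and 194 in the same order, a ratio of -2.64 (0.05). Usp18, which removes the ubiquitin-like protein Isg15, read 4424 on the parental and 961 on the WT Rb-HA array, a ratio of -2.21 (0.05), and LOC100048346, described as similar to it, had a ratio of -2.30 (0.05). Without Rb and with ΔCdk Rb-HA, Usp18 read 924 and 295, and LOC100048346 read 703 and 242. In each of these genes the parental array was the highest and the ΔCdk Rb-HA array the lowest. The 3 cultures other than parental shared both TAT-Cre and the loss of endogenous Rb, which cannot be told apart here.

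The oligoadenylate synthetase-like genes Oasl1 and Oasl2 had log2 ratios of -2.76 (0.13) and -2.48 (0.07), Ifit2 of -2.54 (0.08) and the RNA sensor Ifih1 of -2.26 (0.13). The guanylate-binding proteins Gbp2 and Gbp3 were at -2.25 (0.04) and -2.33 (0.06), Tyki at -2.68 (0.10), Ifi44 at -2.38 (0.13) and Ifi47 at -2.38 (0.09). Second probes pointed the same way, with -1.44 for Oasl1, -1.60 for Oasl2, -2.43 for Ifit2, -2.09 for Gbp3, -0.86 for Gbp2 and -1.10 for Ifi44. The ubiquitin-like modifier Isg15, read by LOC100038882, had intensities of 3897 on the parental and 1210 on the WT Rb-HA array, a ratio of -1.65 (0.10). Members within 1.6-fold included the brightest, Ifitm1, at -0.26 (0.05), from 15216 to 12766, and Ifi205, the highest of the list, at -0.12 (0.10), from 103 to 97.3, whereas the Rb-deleted array read 57.3.

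Interferon-stimulated response elements are shown for genes of this group because the elements are the known binding sites of the Stat and Irf factors. The word GAAA, any 2 bases and GAAA again, searched on both strands, was held by 3.63% of the promoters matched (261 of 7188), by 19.1% of those of decreased genes (41 of 215), by 3.51% of those of increased genes (2 of 57) and by 56.7% of those of interferon effectors (17 of 30). The stretches of Rsad2 (chr12:26456553-26456582, minus strand), Ifit3 (chr19:34583363-34583426, plus strand), Gbp2 (chr3:142620594-142620623, plus strand), Isg15 (chr4:156200865-156200906, minus strand) and the chemokine gene Cxcl10 (chr5:92349083-92349112, minus strand) all lie upstream of the start site in build GRCm38.p6 and are printed 5′ to 3′ on the strand of the gene, with the words in capitals.
Rsad2: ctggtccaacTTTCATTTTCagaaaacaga
Ifit3: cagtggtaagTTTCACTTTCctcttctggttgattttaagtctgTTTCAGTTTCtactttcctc
Gbp2: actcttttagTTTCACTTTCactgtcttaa
Isg15: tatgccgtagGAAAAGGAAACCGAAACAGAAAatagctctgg
Cxcl10: tcacgctttgGAAAGTGAAActtacctcac
Isg15 holds 3 overlapping words. Of the 261 genes with a word 41 were decreased. Among interferon effectors a word was also held by Ifitm3, at -0.53 (0.06), and Irgm1, at -0.38 (0.08), which were within 1.6-fold.

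Interferon signalling genes were lower to a smaller extent, with 7 decreases among 21 detected of 25 listed and a median of -0.39. The share decreased was 33.3%, beside 2.63% of all genes. Irf7, Irf9, Stat2, Irf5, Tlr3 and Irf8 were among the 7. Irf7, which drives further interferon production, read 372 in parental MEFs, 118 with WT Rb-HA, 122.6 without Rb and 58.6 with ΔCdk Rb-HA, a log2 ratio of -1.84 (0.14) for WT Rb-HA. Irf9 was at -1.10 (0.07) and Stat2 at -1.02 (0.11). Receptor chains and kinases were nearer parental, with Ifngr1 at -0.01 (0.10), Ifnar2 at -0.27 (0.18), Tyk2 at -0.28 (0.08) and Jak1 at -0.48 (0.09). Tlr3 and Irf8 were not above background with WT Rb-HA, and only at least 1.05-fold and 1.01-fold lower. Without background correction, and likewise with an offset of 50, the list had 4 decreases.

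Antigen presentation by MHC class I had 8 decreases among 17 detected of 20 listed genes and a median of -0.68. The share decreased was 47.1%, beside 2.63% of all genes. The immunoproteasome subunits Psmb8, Psmb9 and Psmb10 were at -1.01 (0.07), -1.17 (0.15) and -0.86 (0.05), and the peptide transporter subunit Tap2 at -1.13 (0.09). H2-K1 read 2551 on the parental and 1311 on the WT Rb-HA array, a ratio of -0.94 (0.10), and its other detected probe, at 65.4 and 60.7, gave -0.22. The light chain B2m, the brightest, was within 1.6-fold at -0.43 (0.05), from 15087 to 11529, and the chaperone Calr was highest at 0.37 (0.06).

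Among chemokines 9 of 17 detected genes of 22 listed were decreased, or 52.9% beside 2.63% of all genes, with a median of -0.74. Cxcl10 had intensities of 605 on the parental array, 90.7 on the WT Rb-HA array, 74.0 without Rb and 52.0 with ΔCdk Rb-HA, a log2 ratio of -3.11 (0.10) for WT Rb-HA. Ccl4 was at -2.46 (0.08), with -1.40 for its second probe, Ccl9 at -2.36 (0.08) and Ccl5 at -2.23 (0.10). Cxcl1 and Cxcl14 lay near the parental level, at 0.05 (0.07) and 0.04 (0.05). The eosinophil attractant Ccl11 was the highest, at 0.38 (0.06), and Ccl7, the brightest on the parental array, was at -0.74 (0.06), from 6090 to 3532. Of 20 detected cytokine and complement genes of 28 listed, 4 were decreased, namely Il1b and the C1q chains C1qa, C1qb and C1qc, which macrophages also make, and the median was -0.19. The share decreased was 20%, beside 2.63% of all genes. Il1b read 115 on the parental array and 41.6 on the WT Rb-HA array, where it was not above background and at least 2.72-fold lower.

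Macrophage and leukocyte markers were lower as well. Of 26 listed genes, some of which also stand in the cytokine and complement list, 22 were detected, 18 passed 1.6-fold downward and none was above 0, with a median of -1.11. This was 81.8% of the detected markers, beside 2.63% of all genes. Summed over these genes, the intensity came to 12596 in parental MEFs, 5934 with WT Rb-HA, 6460 without Rb and 7295 with ΔCdk Rb-HA. Emr1, which codes for F4/80, read 773 in parental MEFs, 203 with WT Rb-HA, 247 without Rb and 198 with ΔCdk Rb-HA, a log2 ratio of -2.02 (0.07) for WT Rb-HA, and its second probe gave -2.20. Mpeg1, a pore-forming protein of macrophages, was at -1.97 (0.09) and Laptm5, a lysosomal protein of blood cells, at -1.78 (0.06), from 2286 to 663. Lyz, the brightest, was at -0.78 (0.05), from 4801 to 2803, and the transcription factor Sfpi1, not above background with WT Rb-HA, was highest at -0.50 (0.19). Ptprc and Fcer1g, defining markers of leukocytes, were not above background on either array. Markers of macrophages thus differed between the arrays beside the interferon, chemokine and complement genes, and their part in those differences was not tested.

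**Figure D4:**
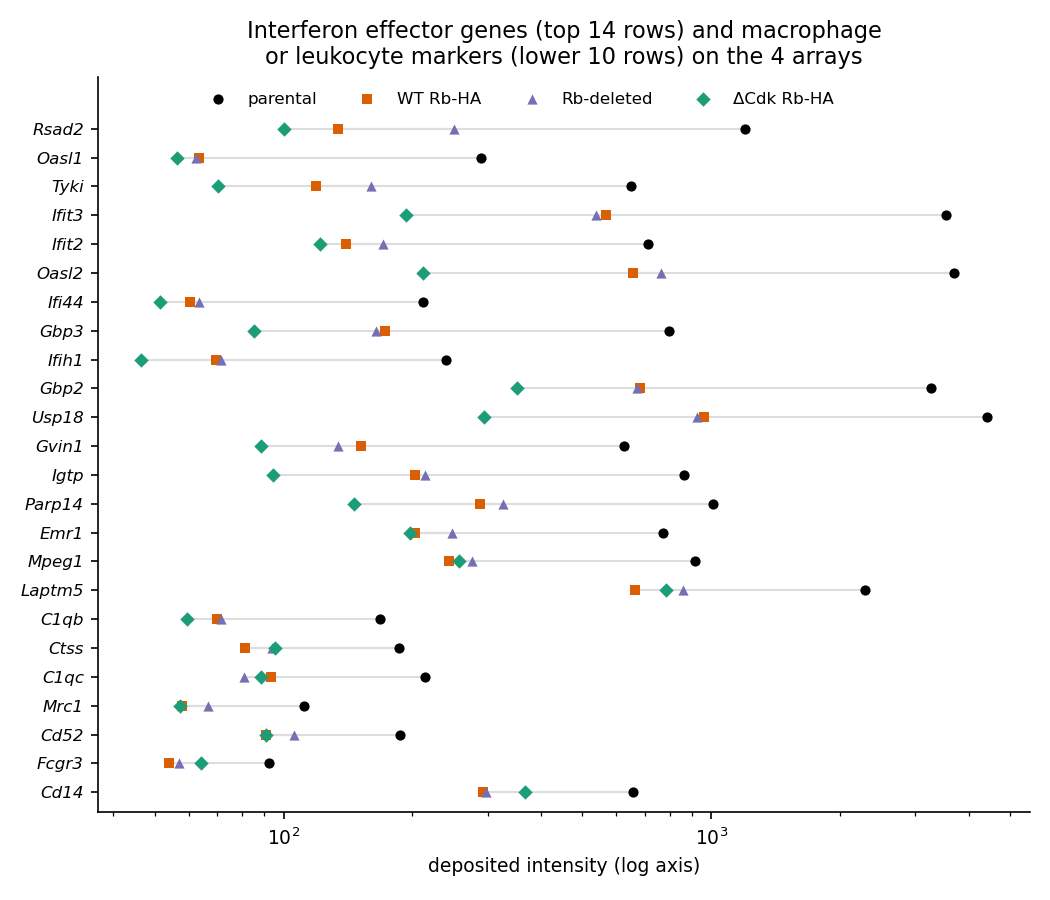
Deposited intensity (log axis) on the parental, WT Rb-HA, Rb-deleted and ΔCdk Rb-HA arrays, 1 array each, of the 14 interferon effector genes (top) and the 10 macrophage and leukocyte markers (bottom) with the lowest ratio of WT Rb-HA to parental. In all 24 rows the parental array is the highest, and for Rsad2 it reads 1197 against 134 with WT Rb-HA.

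Decreases outside these lists, chosen after their values had been seen, included further genes of immune cells and of the response to stress. The checkpoint ligand Cd274 read 250.5 on the parental and 86.7 on the WT Rb-HA array, a log2 ratio of -1.84 (0.10), and the inflammatory caspase Casp1 read 416 and 151, a ratio of -1.57 (0.08). The adhesion molecule Vcam1 read 2372 in parental MEFs and 1165 with WT Rb-HA, while its other 2 detected probes, both dimmer, gave log2 ratios of -0.35 and -0.28. The cystine transporter Slc7a11 and the thioredoxin reductase Txnrd1, both targets of the oxidative stress response, were at -1.01 (0.08) and -1.11 (0.08). Hmga2, a chromatin protein of embryonic cells, read 224 in parental MEFs, 142 with WT Rb-HA, 207 without Rb and 160.4 with ΔCdk Rb-HA, a ratio of -0.74 (0.10) for WT Rb-HA. Its other detected probe, at 71.9 in parental MEFs and 76.4 with WT Rb-HA, gave 0.11.

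Structural and metabolic lists had few or no genes past 1.6-fold. None of 18 detected fibroblast markers, 21 elastic fibre genes, 18 myofibroblast genes, 22 cholesterol and fatty acid synthesis genes, 28 p53 targets, 20 immediate early genes, 27 respiratory chain genes, 20 ribosomal protein genes, 19 hypoxia and glycolysis genes or 18 heat shock and unfolded protein genes passed it, and the medians of these 10 lists lay between -0.18 and 0.18, those of the elastic fibre and hypoxia lists changing sign with the processing. None of 8 adipogenic genes did, with a median of -0.12 that also changed sign. Among 21 collagens Col5a2 was decreased, at -0.96 (0.09), among 19 matrix proteases and inhibitors Mmp13, at -0.74 (0.04), and among 18 IGF and imprinted growth genes Igfbp6 was increased. Of the p53 targets Gdf15 was highest, at 0.62 (0.10), and Fas lowest, at -0.37 (0.06). Endothelial, epithelial, muscle, neural and mast cell lists had 4 to 6 detected genes each, none of them past 1.6-fold.

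**Figure D5:**
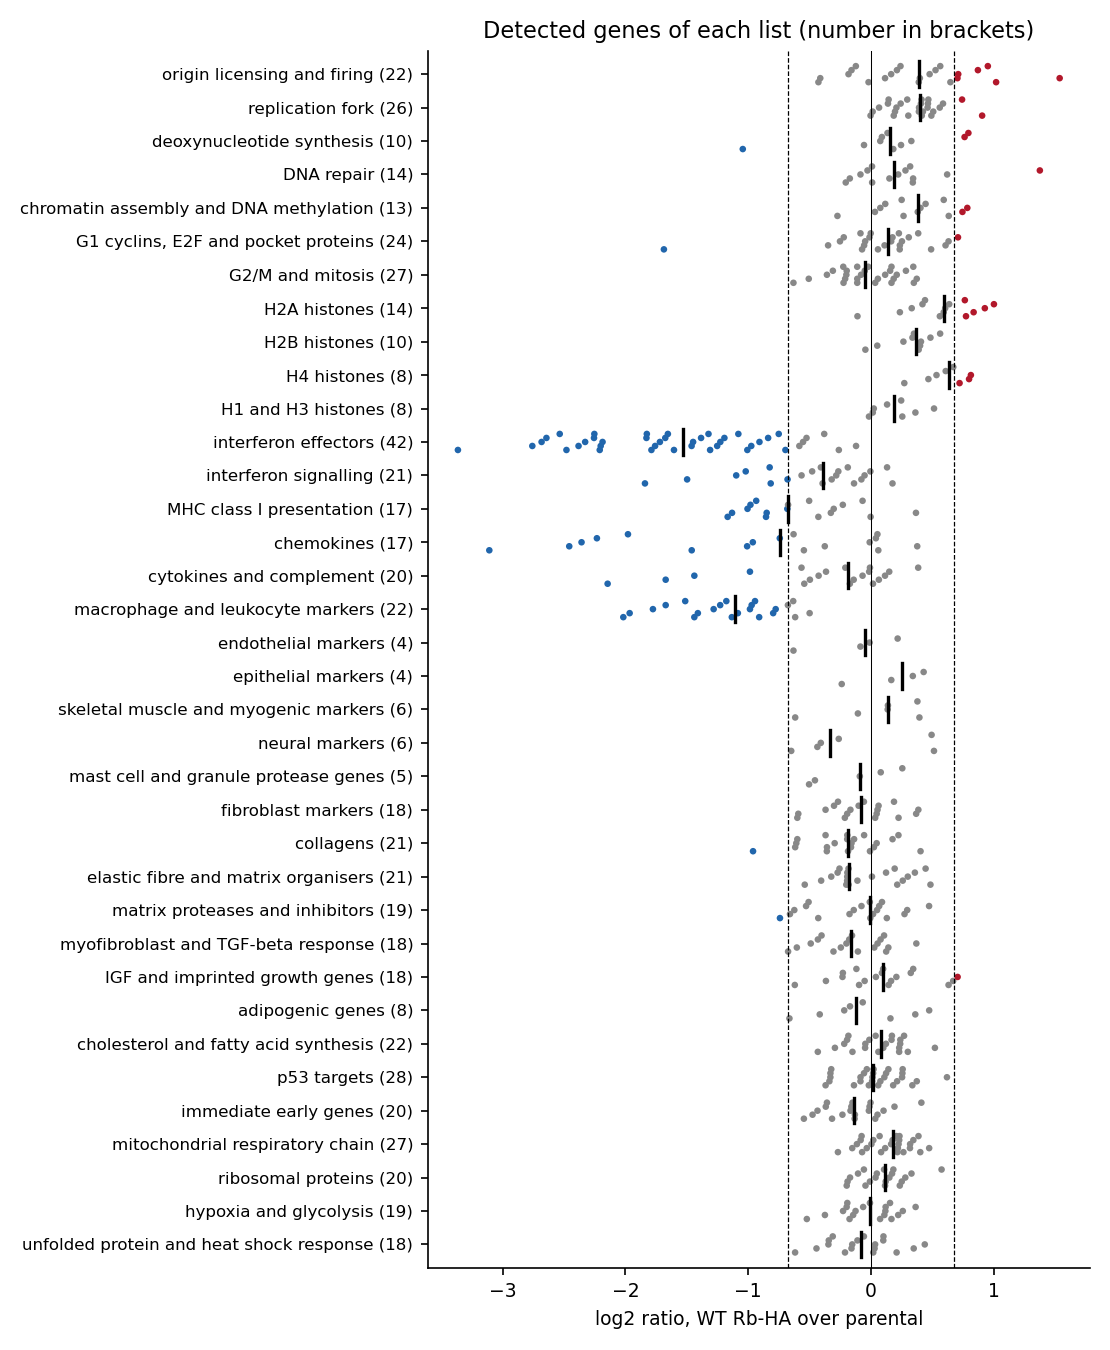
Log2 ratio of WT Rb-HA over parental for the detected genes of 36 lists, 1 point per gene, with the list median as a black bar, dashed lines at 1.6-fold, increased genes in red and decreased genes in blue. Among the genes drawn, most increases lie in the replication, nucleotide, repair, chromatin, H2A and H4 lists. Most decreases drawn lie in the interferon, MHC, chemokine, complement and macrophage lists. Most of the 108 increased genes other than numbered probes and most of the 313 decreased genes are in none of the lists. Medians of the G2/M, endothelial, elastic fibre, matrix protease, adipogenic and hypoxia lists changed sign with the processing.

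Probes that the brightest-probe rule left out gave a reading of their own, although they were hybridized to the same arrays. For 31 of the increased genes 40 other probes were detected, of which 36 were above 0 and 15 passed 1.6-fold upward, with a median log2 ratio of 0.51. For 75 of the decreased genes there were 99, of which 92 were below 0 and 55 passed 1.6-fold downward, with a median of -0.76. Of 4637 other probes of genes within 1.6-fold, 58 passed it upward and 50 downward.

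Gene ontology processes in the array's annotation were given for 6692 of the genes, 58 of them increased and 193 decreased, and the processes named here were chosen after the values had been seen. DNA replication was annotated for 8 of the 58 increased genes, or 13.8%, beside 1.27% of all annotated genes, and nucleosome assembly for 10, or 17.2%, beside 0.941%. Cell cycle was annotated for 6 increased genes, or 10.3%, and 7 decreased genes, or 3.63%, beside 4.35%. Among decreased genes immune response was annotated for 38, or 19.7%, beside 1.81%, and response to virus for 9, or 4.66%, beside 0.299%. Immune response was also annotated for 2 of the 58 increased genes, or 3.45%. Chemotaxis was annotated for 10 of the 193 decreased genes, or 5.18%, beside 0.448%. No decreased gene was annotated with DNA replication or nucleosome assembly, and no increased gene with response to virus or chemotaxis. Regulation of transcription was near its share of 13.6% in both groups, at 15.5% of increased and 10.9% of decreased genes.

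Ratios of the same genes on the other arrays are set beside those of WT Rb-HA, with the reservation that all share the parental array. The 108 increased genes with a name had a median log2 ratio of 0.77 with WT Rb-HA, 0.73 without Rb and 0.79 with ΔCdk Rb-HA. The 313 decreased genes had medians of -0.98, -0.95 and -1.01. Medians on these arrays over all genes were 0.01, 0.00 and -0.02. The genes were chosen on the WT Rb-HA array, which raises its own values, and nothing is read from the order of these medians.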

How the data were processed

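Expression was measured on 4 Illumina whole-genome BeadChip arrays, 1 per condition, of which the parental and WT Rb-HA arrays were compared. The authors deposited for each of 45281 probes the mean intensity over its beads on a linear scale, not normalized between arrays. The deposited table also holds a detection p-value, in steps of 1 in 936, and the bead standard error and the bead count per probe. The array software and normalization are not given in the sources used here.

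Intensities were background-corrected with limma (version 3.58.1, R 4.3.3) by normexp with an offset of 16, the background being estimated through the detection p-values. Quantile normalization then covered all 4 arrays before log2 values were taken. Genes needed a detection p-value below 0.01 on either compared array, the probe with the highest mean log2 signal stood for its gene, and 1.6-fold was the threshold. Of 40 symbols that had turned into dates, 34 were restored from the Entrez number with RefSeq. Bead standard errors were carried through each array's mapping to log2 values. For a probe not detected on the dimmer array, the fold is a bound against its own value there or the dimmest detected probe, whichever was higher. With 1 array per condition no test was run and the number of arrays limits the precision. The calculation was tested on simulated data. Python 3.11.15, numpy 2.4.6, pandas 2.3.3 and matplotlib were used.

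Named genes were Rb1, the 15 largest increases and decreases that were past 1.6-fold in one direction whether or not background was corrected, and in each list the highest, lowest, brightest and decreased or increased members, summarised where many. Genes, lists, ontology terms and promoter words were chosen with earlier results of these data known. The lists follow textbook functions, and 1 gene, Isg15, was read through its RefSeq symbol. Alternatives changed the background correction, offset, normalization, filter, probe choice and threshold. One member of the interferon signalling list is not reported here.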

Additional observations from a re-analysis of the deposited data

How the results depend on the processing

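The count of increased genes was 112 and became 54 without background correction, 44 with an offset of 50 and 18 at a threshold of 2-fold. The count of decreased genes was 313 and became 195, 174 and 150 under the same alternatives. Quantile normalization of the compared arrays alone, median scaling, detection on both arrays, no filter on dim probes, the mean of detected probes and the brightest probe over 4 arrays kept both counts within 1.5 times, with increased genes between 89 and 142 and decreased genes between 227 and 315. A limit of 2 bead standard errors left both counts unchanged, which the 1.6-fold threshold nearly implied. The median of the origin licensing and firing genes was 0.39, became 0.25 with an offset of 50 and otherwise moved by less than the median bead standard error of its genes. The median of the interferon effectors, -1.53, became -1.34 without background correction, -1.26 with an offset of 50, -1.67 with detection on both arrays, -1.25 without a filter and -1.42 with the mean of detected probes. All these medians kept their direction, whereas those of the G2/M, endothelial, elastic fibre, matrix protease, adipogenic and hypoxia lists changed sign under at least 1 alternative, within -0.18 and 0.10. Of 52 named genes past 1.6-fold, none changed sign, and 46 still passed it with an offset of 50, 49 without background correction and 49 with the mean of detected probes. The other alternatives kept all that they retained past 1.6-fold. The 15 largest increases and 15 largest decreases among the 52 had been chosen to pass it without background correction. The 49 under that alternative therefore partly reflect the choice and are no measure for the increased and decreased genes at large. An offset pulls dim genes toward 0 by construction. No paired analysis was possible because each condition had 1 array and the result comes from no test.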
